A study of Homo sapiens with 6 samples.

Results

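Ribosomal protein genes were examined as a group in chromatin accessibility data from Jurkat, a human line established from a T-cell leukaemia. The members were the protein-coding RefSeq genes with a symbol beginning with RPL, RPS, MRPL or MRPS and a digit, leaving out the RPS6K kinases and pseudogenes. This rule found 164 of 20033 protein-coding genes on 24 chromosomes, of which 87 were named as cytosolic (RPL and RPS) and 77 as mitochondrial (MRPL and MRPS). The cytosolic names included 3 readthrough transcripts (RPL17-C18orf32, RPS10-NUDT3 and RPL36A-HNRNPH2) and RPS19BP1, which is named after a ribosomal protein that its product binds. L and S in a symbol stand for the large and the small subunit, although the protein of MRPS30 has been placed in the large mitochondrial subunit.

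Cytosolic ribosomes translate the mRNAs of nuclear genes, and mitochondrial ribosomes translate the few mRNAs of the mitochondrial genome. The proteins of both are encoded in the nucleus, made in the cytosol and assembled with ribosomal RNA. Most mRNAs of cytosolic ribosomal proteins begin with a terminal oligopyrimidine tract, a C followed by a run of pyrimidines, through which mTOR signalling controls their translation. Mitochondrial ribosomal protein genes are known as targets of factors that drive mitochondrial biogenesis, among them GABP (an ETS family factor), YY1 and NRF1.

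In ATAC-seq a transposase cuts open chromatin and adds sequencing adapters there. The simulated microgravity group (SMG 1 to SMG 3) comprised 3 libraries of Jurkat nuclei placed in a random positioning machine that rotated at 30 degrees per s for 30 min at 37 °C. The normal gravity group (NG 1 to NG 3) comprised 3 libraries of Jurkat nuclei. In both groups nuclei from 50000 cells were released by 3 min of lysis, and transposition lasted 30 min at 37 °C. The labels do not say whether rotation and transposition ran at the same time. Nuclei and not intact cells were rotated, from 1 cell line, so these values do not describe a response of living T cells. The labels name no separate cultures for replicates, so each p-value measures the spread between these 6 libraries alone, and that spread may be technical.

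The authors' peak lists held 37782 to 43713 peaks per library, with a median width of 424 to 487 bp. They give no read counts, so sequencing depth is not known from them. T-cell markers matched the labelled cell type: 10 of 10 (among them CD3D, CD3E, LCK and ZAP70) had a peak at a gene end in all 6 libraries. Markers of B cells, myeloid cells and epithelial cells had none in any library (0 of 5 each). Of 5 erythroid markers, 3 had none, while ALAS2 and KLF1 had a peak in some libraries.

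A gene was counted as open in a library if a peak overlapped a window of 1 kb to each side of either end of the gene. The strongest peak in these windows, by the authors' −log10 q-value, is called the best peak. Its score percentile is its rank among all peaks of its own library, where 100 is the strongest. A gene without such a peak was not shown to be closed, since a promoter farther inside the gene was not covered.

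Promoter sequences of the strongest, the weakest and the most different genes are shown first, because cytosolic and mitochondrial promoters differ in the letters at the start. The sequences are from RefSeq on GRCh38.p14 and run 5′ to 3′ on the gene's own strand, from 100 bases before an annotated start to the first 30 bases of the transcript. Capitals mark pyrimidine words between 10 bases before and 20 bases after the start, on the gene's strand: one word is CTTTC, another is spelled CTTTT, and the last, which may overlap the first, is TTTCC. They also mark the ETS core CCGGAAG and the YY1 motif AAGATGGC on either strand. Among genes with strong best peaks, RPS3A and RPS25 (small cytosolic subunit), RPL15 (large cytosolic subunit), MRPS9 and MRPS18C (small mitochondrial subunit) read as follows.
RPS3A (chr4:151099528-151099657, plus strand): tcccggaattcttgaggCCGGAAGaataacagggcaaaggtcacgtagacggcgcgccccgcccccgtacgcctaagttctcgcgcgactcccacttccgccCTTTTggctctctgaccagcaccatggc
RPL15 (chr3:23917032-23917161, plus strand): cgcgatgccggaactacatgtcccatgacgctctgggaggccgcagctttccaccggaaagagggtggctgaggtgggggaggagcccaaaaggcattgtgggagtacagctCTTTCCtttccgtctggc
RPS25 (chr11:119018314-119018443, minus strand): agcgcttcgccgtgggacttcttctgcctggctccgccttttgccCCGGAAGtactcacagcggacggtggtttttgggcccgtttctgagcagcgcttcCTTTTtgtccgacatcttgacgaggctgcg
MRPS9 (chr2:105037969-105038098, plus strand): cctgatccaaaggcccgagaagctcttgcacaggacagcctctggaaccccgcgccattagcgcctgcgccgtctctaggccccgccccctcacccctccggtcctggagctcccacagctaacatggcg
MRPS18C (chr4:83455958-83456087, plus strand): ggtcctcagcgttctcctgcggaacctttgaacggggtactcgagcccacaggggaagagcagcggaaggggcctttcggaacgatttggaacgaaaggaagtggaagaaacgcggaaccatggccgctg
The cytosolic sequences of this set carry a pyrimidine word at the start and the mitochondrial ones do not. Weaker best peaks were found at RPL29 and RPL17-C18orf32 (large cytosolic subunit), MRPS2 (small mitochondrial subunit), MRPL40 and MRPL12 (large mitochondrial subunit).
RPL17-C18orf32 (chr18:49492436-49492565, minus strand): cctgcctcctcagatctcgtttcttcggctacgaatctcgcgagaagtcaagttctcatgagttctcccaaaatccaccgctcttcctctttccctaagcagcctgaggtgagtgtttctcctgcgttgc
RPL29 (chr3:51995866-51995995, minus strand): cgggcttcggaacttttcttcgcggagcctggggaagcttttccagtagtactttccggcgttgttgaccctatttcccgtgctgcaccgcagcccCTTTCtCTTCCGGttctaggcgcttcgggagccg
MRPS2 (chr9:135500582-135500711, plus strand): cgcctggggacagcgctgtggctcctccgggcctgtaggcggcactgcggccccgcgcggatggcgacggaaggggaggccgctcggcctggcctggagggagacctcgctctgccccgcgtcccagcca
MRPL40 (chr22:19432445-19432574, plus strand): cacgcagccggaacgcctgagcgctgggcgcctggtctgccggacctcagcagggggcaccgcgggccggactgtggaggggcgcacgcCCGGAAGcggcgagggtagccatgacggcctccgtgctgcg
MRPL12 (chr17:81703267-81703396, plus strand): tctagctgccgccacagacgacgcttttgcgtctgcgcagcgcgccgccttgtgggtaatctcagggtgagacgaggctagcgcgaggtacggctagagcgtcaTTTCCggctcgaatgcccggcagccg
A pyrimidine word stands at the start of RPL29 and of MRPL12 too, so a strong peak does not go with this word in every gene. The genes with the largest differences between the gravity groups, described further on, were RPL13 and RPL18 (large cytosolic subunit), RPS15 (small cytosolic subunit), MRPS7 (small mitochondrial subunit), MRPL27 and MRPL58 (large mitochondrial subunit). RPL13 and RPL18 carry the word CTTTCC at the start, MRPS7 a YY1 motif and both MRPL27 and MRPL58 an ETS core, while RPS15 carries none of these in the stretch shown.
RPL13 (chr16:89560582-89560711, plus strand): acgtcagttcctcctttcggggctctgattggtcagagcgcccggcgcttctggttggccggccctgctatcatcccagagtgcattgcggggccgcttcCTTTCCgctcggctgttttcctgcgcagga
RPL18 (chr19:48619149-48619278, minus strand): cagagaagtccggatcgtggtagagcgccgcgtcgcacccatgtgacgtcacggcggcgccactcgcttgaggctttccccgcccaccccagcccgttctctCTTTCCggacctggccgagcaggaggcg
RPS15 (chr19:1438296-1438425, plus strand): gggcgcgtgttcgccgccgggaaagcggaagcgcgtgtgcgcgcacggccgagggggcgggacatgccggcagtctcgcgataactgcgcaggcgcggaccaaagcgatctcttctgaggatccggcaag
MRPS7 (chr17:75261779-75261908, plus strand): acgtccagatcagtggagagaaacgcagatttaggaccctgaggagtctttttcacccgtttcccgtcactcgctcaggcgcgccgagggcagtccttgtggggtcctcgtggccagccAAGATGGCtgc
MRPL27 (chr17:50373155-50373284, minus strand): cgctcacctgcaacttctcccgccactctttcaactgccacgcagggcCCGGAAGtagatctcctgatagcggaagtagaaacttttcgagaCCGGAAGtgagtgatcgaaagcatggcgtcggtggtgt
MRPL58 (chr17:75012570-75012699, plus strand): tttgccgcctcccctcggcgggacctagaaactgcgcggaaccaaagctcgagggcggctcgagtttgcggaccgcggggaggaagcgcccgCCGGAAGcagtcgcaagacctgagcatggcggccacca

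The motif search covered 1 promoter per gene, the 300 bases from 250 before to 50 after the outermost annotated start, for the 137 of 164 members with a sequence in the table. A match is a description of letters, not a shown binding site. Of 68 cytosolic promoters, 41 (60.3%) held a pyrimidine word at the start, against 7 of 69 mitochondrial promoters (10.1%) and 9.51% of all 15842 promoters. Among promoters of genes open in all 6 libraries the share was 9.66%, close to the share over all promoters. CTTTC alone stood at the start of 42.6% of cytosolic, 4.35% of mitochondrial and 3.98% of all promoters.

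The ETS core CCGGAAG, searched on both strands over the 300 bases, was in 32.4% of cytosolic and 42.0% of mitochondrial promoters, against 14.2% of all promoters and 22.4% of promoters of genes open in all 6 libraries. The YY1 motif AAGATGGC was in 10.3% of cytosolic and 29.0% of mitochondrial promoters, against 3.86% of all promoters and 6.34% of those open in all 6 libraries. Both sets thus held the ETS core more often than promoters at large, and the mitochondrial set held the YY1 motif most often. The palindromic NRF1 motif was in 1 promoter of each set (1.47% and 1.45%), beside 1.77% of all promoters. A GC box, GGGCGG on either strand, was in 52.9% of cytosolic, 59.4% of mitochondrial and 58.3% of all promoters. TATAAA was in 8.82% of cytosolic, 2.90% of mitochondrial and 9.75% of all promoters. Promoters of genes open in all 6 libraries held the NRF1 motif in 2.98%, the GC box in 70.8% and TATAAA in 5.38%. Beside these, both sets held the GC box less often, and TATAAA was more frequent in the cytosolic set.

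**Figure D1:**
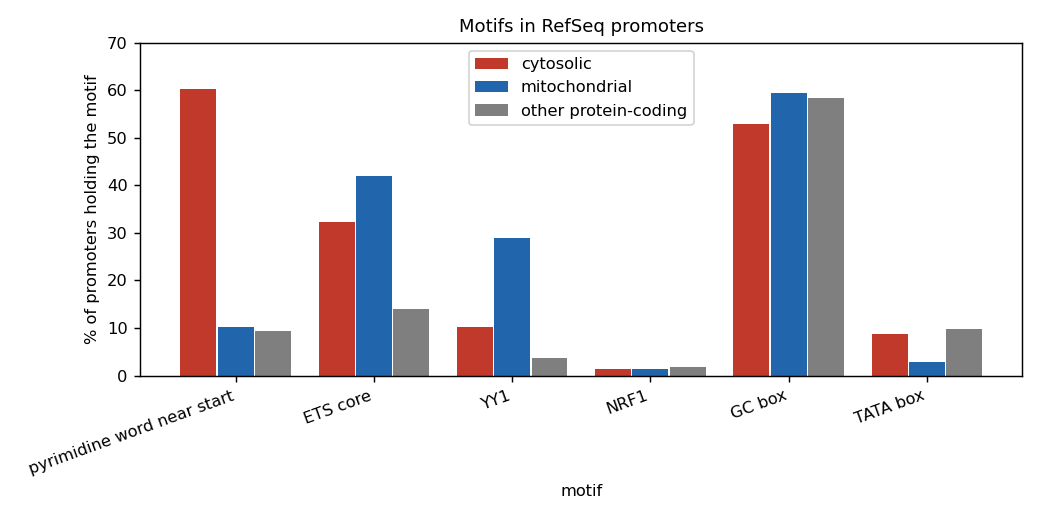
Share of promoters (y axis, %) that hold each motif (x axis), for cytosolic (68 promoters), mitochondrial (69) and other protein-coding genes (15705). The pyrimidine word stands out in the cytosolic set at 60.3%, and the YY1 motif in the mitochondrial set at 29.0%.

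Most ribosomal protein genes were open. A best peak was present in all 6 libraries for 78 of 87 cytosolic genes (89.7%) and 65 of 77 mitochondrial genes (84.4%), against 9331 of 20033 protein-coding genes (46.6%). In no library was a peak found for 3 cytosolic and 3 mitochondrial genes (3.45% and 3.90%), against 39.7% of all protein-coding genes. Per library, 81, 84 and 81 cytosolic genes were open in SMG 1, 2 and 3, against 80, 83 and 82 in NG 1, 2 and 3. The mitochondrial set had 70, 70 and 67 open genes in the SMG libraries, against 68, 72 and 73 in the NG libraries. The gravity groups overlapped in both sets.

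The open share of the cytosolic set was 94.3% ± 1.99 in SMG libraries and 93.9% ± 1.76 in NG libraries (SD, n = 3 each). For the mitochondrial set it was 89.6% ± 2.25 in SMG libraries and 92.2% ± 3.44 in NG libraries (SD, n = 3 each). Genes outside both sets stood at 53.2% in SMG libraries and 52.9% in NG libraries. The excess over other genes was 41.0 ± 0.906 percentage points for the cytosolic set and 37.8 ± 2.05 for the mitochondrial set (SD, n = 6 libraries), positive in 6 of 6 libraries for each. The cytosolic share was above the mitochondrial one in 5 of 6 libraries, by 3.15 ± 2.50 percentage points. At annotated starts alone the order turned, with 93.1% of cytosolic and 94.9% of mitochondrial genes open.

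Openness went with promoter GC content over all genes, from 18.5% of 2929 genes open in all 6 libraries at up to 50% GC to 63.4% of 5340 genes at 60 to 70% GC. Median promoter GC content was 59.0% for cytosolic, 60.3% for mitochondrial and 62.7% for all promoters. Within the band of 50 to 60% GC, 22 of 25 cytosolic (88.0%) and 28 of 30 mitochondrial genes (93.3%) were open in all 6 libraries, against 49.3% of 3655 genes. Above 70% GC, 1 of 2 cytosolic and 5 of 10 mitochondrial genes were open in all 6 libraries, beside 52.8% of 3918 genes. Across the members open in all 6 libraries, GC content and mean score percentile had a Spearman correlation of −0.0707 over 59 cytosolic genes and −0.0996 over 60 mitochondrial genes, which share the same 6 libraries.

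**Figure D2:**
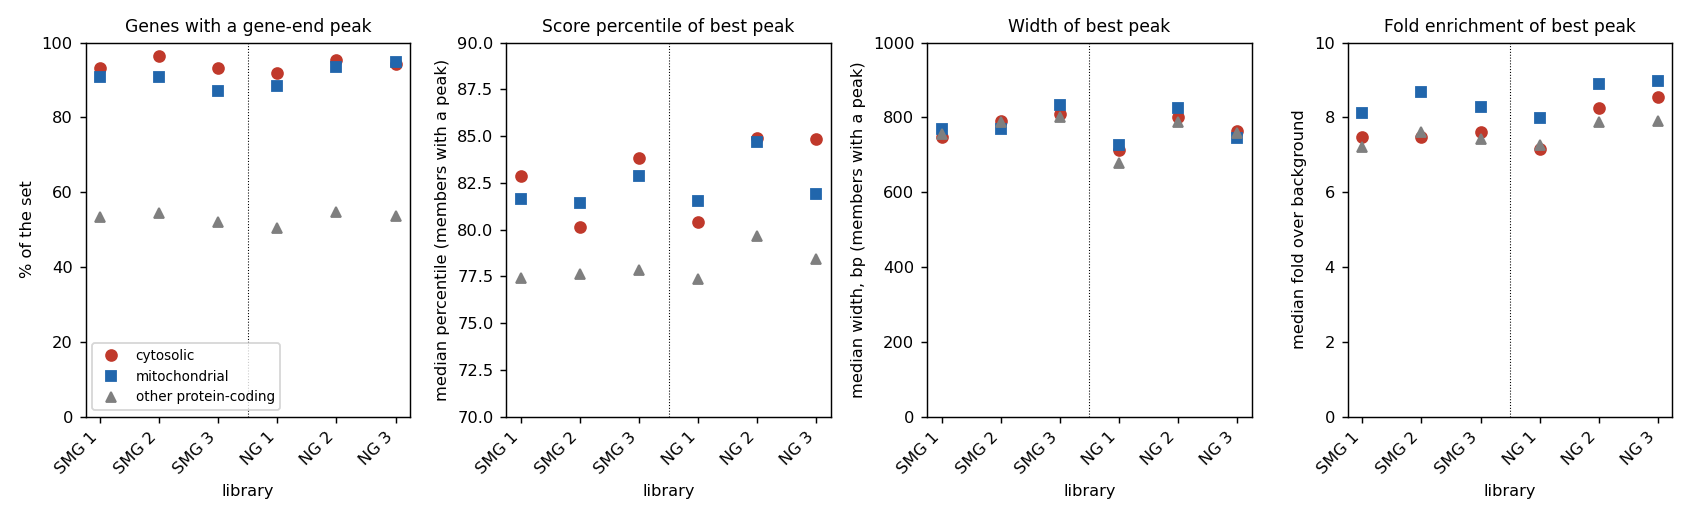
Values per library (x axis, SMG 1 to 3 left and NG 1 to 3 right of the dotted line) for cytosolic, mitochondrial and other protein-coding genes, showing from left to right the % of genes with a gene-end peak, the median score percentile, the median width in bp and the median fold enrichment of the best peak. The percentile axis runs from 70 to 90. Both ribosomal sets lie above other genes in the first and second panels in 6 of 6 libraries, and mitochondrial genes lie above cytosolic genes in fold in 6 of 6.

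Where ribosomal protein genes had a peak, its median rank was somewhat above that of other genes and its median width was alike. The median score percentile of cytosolic genes was 82.9, 80.1 and 83.8 in SMG 1, 2 and 3, against 80.4, 84.9 and 84.8 in NG 1, 2 and 3. Mitochondrial genes had median percentiles of 81.6, 81.4 and 82.9 in the SMG libraries, against 81.5, 84.7 and 81.9 in the NG libraries. The gravity groups overlapped in both sets. The cytosolic median exceeded that of genes outside both sets in 6 of 6 libraries, by 4.79 ± 1.61 percentile points, and the mitochondrial median did so in 6 of 6, by 4.30 ± 0.638 (SD, n = 6 libraries). The share of best peaks at a percentile of 90 or more exceeded that of other genes in 4 of 6 libraries for each set. Within bands of promoter GC content the order varied, among genes open in all 6 libraries. At 50 to 60% GC the median was 85.5 for cytosolic, 84.4 for mitochondrial and 84.0 for other genes. At 60 to 70% GC it was 81.2, 85.3 and 85.0, and at up to 50% GC 73.6, 78.1 (3 genes) and 77.4. Above 70% GC it was 94.1 (1 gene), 59.3 (5 genes) and 74.2.

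The cytosolic and mitochondrial sets were hardly apart. Their median percentiles differed by 0.491 ± 1.58 points (cytosolic minus mitochondrial, SD, n = 6 libraries), with the cytosolic set higher in 4 of 6 libraries. This small difference had no fixed direction: it was −5.37 when peaks were ranked by fold enrichment, −4.14 at annotated starts only, −3.69 without genes that share a best peak with a gene outside both sets, −2.06 with a deposited score of at least 100, and −0.942 with windows of 3 kb.

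Median best-peak widths of cytosolic genes were 747, 791 and 809 bp in SMG 1, 2 and 3, against 712, 800 and 763 bp in NG 1, 2 and 3. Those of mitochondrial genes were 768.5, 768 and 832 bp in the SMG libraries, against 725.5, 824 and 745 bp in the NG libraries. The cytosolic minus mitochondrial difference was −6.83 ± 21.6 bp (SD, n = 6 libraries), smaller than its spread. It was 4.33 bp without readthrough genes and RPS19BP1 and −43.8 bp without genes that share a best peak with a gene outside both sets. Against genes outside both sets, cytosolic peaks differed in width by 8.67 ± 14.1 bp and mitochondrial peaks by 15.5 ± 28.0 bp, again within the spread.

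Fold enrichment, the height of the peak over its local background as the authors' peak caller gave it, did separate the sets. The median fold of mitochondrial genes averaged 8.48 over the 6 libraries, against 7.75 for cytosolic genes and 7.55 for genes outside both sets. Cytosolic genes were below mitochondrial genes in 6 of 6 libraries, by −0.733 ± 0.267 (SD, n = 6 libraries). Mitochondrial genes exceeded genes outside both sets in 6 of 6 libraries, by 0.938 ± 0.137, whereas cytosolic genes did so in 4 of 6, by 0.204 ± 0.301. Fold enrichment moves with depth, so these differences were taken within each library.

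Large and small subunits, taken from the L or S in the symbol, stood in opposite order in the cytosolic and mitochondrial sets. MRPS30 and RPS19BP1 were therefore counted as small, and the other symbols were not checked against the known place of each protein. The median of the mean score percentile was 84.3 for 47 large-subunit and 81.8 for 31 small-subunit cytosolic genes open in all 6 libraries, and 80.1 for 41 large-subunit and 86.5 for 24 small-subunit mitochondrial genes. Median widths followed the same order, at 812 bp for large and 708 bp for small cytosolic subunits, and at 772 bp for large and 873.5 bp for small mitochondrial subunits. The interquartile ranges overlapped ( 70.7 to 90.5 and 67.7 to 88.4 for cytosolic large and small, 69.1 to 88.1 and 76.0 to 94.9 for mitochondrial large and small).

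Around the annotated start, mitochondrial peaks reached less far upstream than cytosolic peaks. With the start nearest to the peak, the best peak covered a start for 89.4% ± 2.82 of cytosolic and 95.3% ± 2.17 of mitochondrial genes, against 74.1% ± 0.933 of other genes (SD, n = 6 libraries). The median summit lay at −59.8 bp from the start in cytosolic (−79 to −48 bp over the libraries), −41.8 bp in mitochondrial (−49 to −34 bp) and −61.5 bp in other genes, where negative values are upstream. Peaks reached a median of 447 bp upstream in cytosolic genes (424.5 to 487.5 bp over the libraries) and 386 bp in mitochondrial genes (375.5 to 416 bp), ranges that did not overlap. Downstream they reached 347 bp in cytosolic, 371 bp in mitochondrial and 354 bp in other genes. With the outermost annotated start instead, a setting chosen after the data were seen, the summits lay at −53.8 bp in cytosolic and −40.8 bp in mitochondrial genes, and peaks reached 421 bp upstream in cytosolic (362 to 476 bp) and 384 bp in mitochondrial genes (369 to 415 bp), ranges that overlapped.

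**Figure D3:**
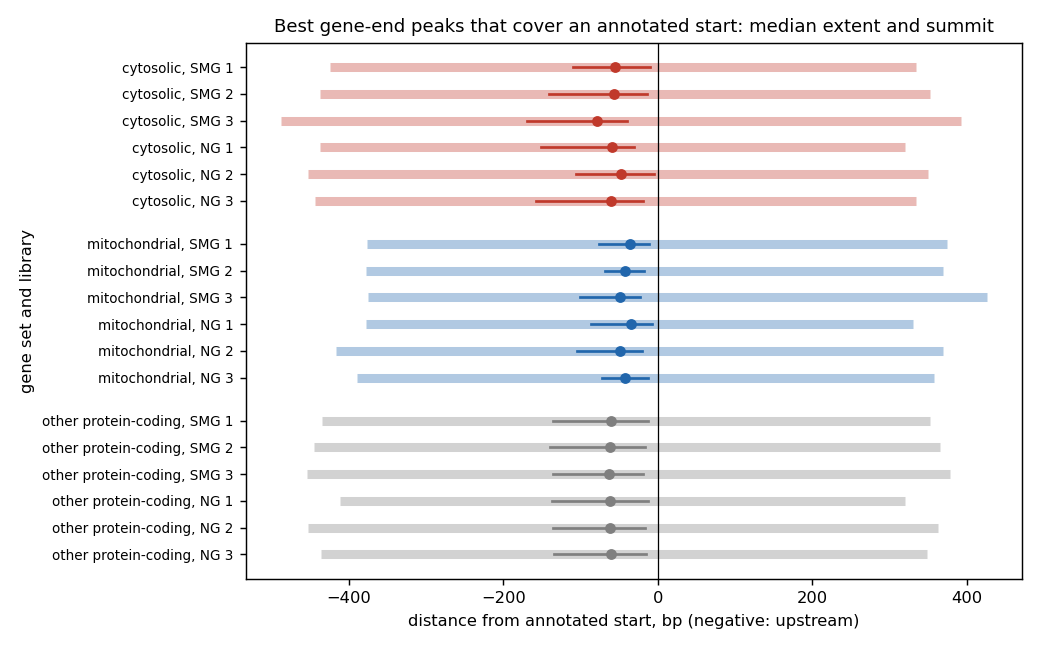
Median extent of best peaks that cover an annotated start (pale bars), median summit (dots) and the interquartile range of summits (thin lines), as distance from the start in bp (x axis, negative values upstream), for each gene set and library (y axis). Mitochondrial bars reach less far upstream (375.5 to 416 bp) than cytosolic bars (424.5 to 487.5 bp).

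Many best peaks were shared with a neighbouring gene, so that the peak cannot be given to 1 of them. A best peak was counted as shared if, in at least 1 library, it overlapped the gene-end window of another protein-coding gene. It need not reach that gene end itself or be shared in every library. Among members open in all 6 libraries, 27 of 78 cytosolic (34.6%) and 30 of 65 mitochondrial genes (46.2%) shared their best peak in this way with a protein-coding gene outside both sets. Sharing with any other protein-coding gene was found for 34.6% of 9331 genes.

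Single genes ranged widely. The mean score percentile over 6 libraries ran from 24.9 to 99.0 among 78 cytosolic genes, with a median of 83.4, and from 36.5 to 98.5 among 65 mitochondrial genes, with a median of 82.2. Percentile and width rose together across genes, with a Spearman correlation of 0.629 over 78 cytosolic genes, 0.709 over 65 mitochondrial genes and 0.657 over 9331 genes, all taken from the same 6 libraries.

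**Figure D4:**
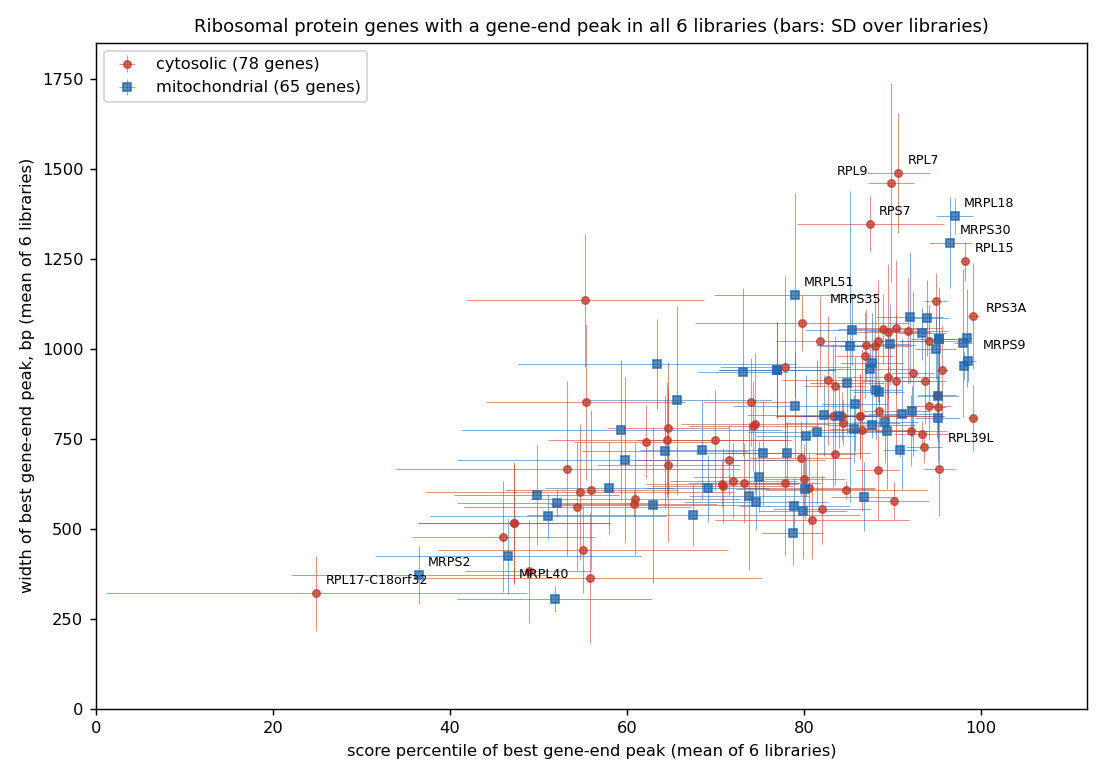
Mean score percentile (x axis) against mean width in bp (y axis) of the best peak of each ribosomal protein gene open in all 6 libraries, with SD over the 6 libraries as bars. Cytosolic genes run from RPL17-C18orf32 at 24.9 to RPS3A at 99.0, and mitochondrial genes from MRPS2 at 36.5 to MRPS28 at 98.5.

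The strongest cytosolic gene was RPS3A (chromosome 4, 151099628 to 151104642, hg38), a protein of the small subunit. Its best peak had percentiles of 99.1, 99.4 and 97.8 in SMG 1, 2 and 3, against 99.7, 99.5 and 98.8 in NG 1, 2 and 3, and its deposited fold was 11.9, 12.9 and 9.94 in SMG libraries, against 14.6, 13.2 and 11.9 in NG libraries. The groups overlapped, and each value lay among the top peaks of its library. RPL39L (chromosome 3, 187120948 to 187139496), a paralogue of RPL39 best known from male germ cells, had percentiles of 99.5, 98.8 and 98.1 in SMG libraries, against 98.8, 99.6 and 99.3 in NG libraries. RPL15 (chromosome 3, 23916545 to 23924631) was also among the widest, with peaks of 1248, 1249 and 1310 bp in SMG libraries, against 1192, 1288 and 1171 bp in NG libraries. RPS25 (chromosome 11, 119015717 to 119018343), known for its part in translation from internal ribosome entry sites, had a mean percentile of 95.6 ± 0.661 (SD, n = 6 libraries) at a peak shared with TRAPPC4.

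Mitochondrial genes reached the same ranks. MRPS28 (chromosome 8, 79918717 to 80030259), a small-subunit protein, led them with percentiles of 97.3, 97.9 and 99.3 in SMG libraries, against 98.8, 99.4 and 98.6 in NG libraries, at a peak shared with TPD52. MRPS18C (chromosome 4, 83456058 to 83462298) had percentiles of 98.8, 98.4 and 97.5 in SMG libraries, against 98.1, 98.1 and 97.7 in NG libraries, at a peak shared with the DNA helicase gene HELQ. MRPL50 (chromosome 9, 101387633 to 101398618) averaged 98.0 ± 0.994 (SD, n = 6 libraries) at a peak shared with ZNF189. MRPS9, second to MRPS28 in mean percentile at 98.4 ± 0.620 (SD, n = 6 libraries), is described with the gravity comparison.

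The widest cytosolic best peaks were those of RPL7 (chromosome 8, 73290242 to 73294466, shared with RDH10), RPL9 (chromosome 4, 39454124 to 39458922, shared with LIAS) and RPS7 (chromosome 2, 3575260 to 3580920), with means of 1489 ± 167, 1462 ± 275 and 1346 ± 77.0 bp (SD, n = 6 libraries). RPS7 is a small-subunit protein also known to bind MDM2. Its peak shared no end with another protein-coding gene and measured 1368, 1342 and 1263 bp in SMG libraries, against 1393, 1456 and 1257 bp in NG libraries. Among mitochondrial genes the widest were MRPL18 (chromosome 6, 159789812 to 159798429, shared with the chaperonin gene TCP1), MRPS30 (chromosome 5, 44808947 to 44815514), MRPL51 (chromosome 12, 6491886 to 6493262, shared with the condensin gene NCAPD2) and MRPS35 (chromosome 12, 27710832 to 27756295). Their means were 1368 ± 50.2, 1294 ± 126, 1148 ± 284 and 1087 ± 181 bp (SD, n = 6 libraries).

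At the low end, RPL17-C18orf32 (chromosome 18, 49481178 to 49492465) had percentiles of 23.7, 0.874 and 2.61 in SMG libraries, against 14.9, 54.8 and 52.5 in NG libraries. SMG 1 lay above NG 1, so the groups overlapped. This weak peak lay at the gene end, at 49492465, that the readthrough gene has in common with RPL17. The best peak counted for RPL17, at a mean percentile of 93.3, was another one. It covered an annotated start of RPL17 in 0 libraries and was shared with C18orf32. RPL29 (chromosome 3, 51993522 to 51995895), a large-subunit protein, had percentiles of 41.1, 57.6 and 33.7 in SMG libraries, against 44.9, 39.6 and 59.4 in NG libraries. The gene RPS10-NUDT3 (chromosome 6, 34287194 to 34426069) had the same peak as RPS10, at a mean percentile of 47.2 ± 10.9 (SD, n = 6 libraries).

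Among mitochondrial genes MRPS2 (chromosome 9, 135499965 to 135504673) was lowest, with percentiles of 12.1, 42.5 and 53.6 in SMG libraries, against 45.7, 35.7 and 29.5 in NG libraries. Its best peaks did not lie at a common place in the 6 libraries, so its values compare different peaks. They were shared with PIERCE1 in some or all libraries. MRPL40 (chromosome 22, 19432545 to 19436075), a gene of the region deleted in DiGeorge syndrome, had percentiles of 34.8, 65.2 and 23.5 in SMG libraries, against 48.6, 53.6 and 53.7 in NG libraries, at a peak shared with HIRA. MRPL12 (chromosome 17, 81703367 to 81707517), whose protein also binds the mitochondrial RNA polymerase, averaged 49.8 ± 9.32 (SD, n = 6 libraries) at a peak shared with HGS. In MRPL40, and in MRPS2 across its different peaks, the SMG libraries spread more widely than the NG libraries.

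Cytosolic genes with a pyrimidine word at the start had stronger peaks in the median than those without, at 86.3 over 38 genes against 70.7 over 21 genes open in all 6 libraries. In the mitochondrial set the order was opposite, at 64.3 over 5 genes with any of these words against 83.9 over 55 without. It varied by word, at 95.1 for 1 gene with CTTTT, 64.3 for 1 gene with CTTTC and 57.7 over 4 genes with TTTCC. For the ETS core the medians were 79.6 with it (19 genes) and 83.4 without it (40 genes) in the cytosolic set, and 78.9 (27 genes) and 85.1 (33 genes) in the mitochondrial set. These are descriptions over genes, which are no replicates.

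The members without a peak in every library fell into several kinds. MRPL24 (chromosome 1, 156737303 to 156742716) and MRPL44 (chromosome 2, 223950854 to 223967714), both of the large mitochondrial subunit, had no peak in their gene-end windows. Both had a peak inside the gene that covered the start listed for them in 6 of 6 libraries, at mean percentiles of 92.2 and 85.4. The gene-end windows did not reach these peaks. RPL26L1, a paralogue of RPL26, and MRPS6, of the small mitochondrial subunit, also had a peak inside the gene in 6 of 6 libraries, at mean percentiles of 85.8 and 68.6, which covered no listed start. At the edge of the rule, the farthest peak still counted lay 680 bp from the gene end in the cytosolic set (RPS2, SMG 1) and 607 bp in the mitochondrial set (MRPS2, NG 3), and the nearest not counted lay 1093 bp away (MRPL24, SMG 1).

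RPS18 (chromosome 6, 33272075 to 33276511), of the small cytosolic subunit, lies in the MHC region and had no peak within 22.2 kb in any library. The lists also hold peaks on alternate contigs of chromosome 6, which carry other versions of the MHC region (118 to 251 peaks per library). Their part in the missing RPS18 peak was not tested. RPS4Y2 had no gene-end peak, while its paralogue RPS4Y1 was open in all 6 libraries. RPL10L, a retrogene copy of RPL10 known from the testis, was open in SMG 2 alone at a percentile of 16.4, whereas RPL10 was open in all 6 libraries at a mean percentile of 55.9 ± 9.78 (SD, n = 6 libraries).

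The other 14 genes open in some libraries had mean percentiles, over the libraries with a peak, from 10.7 (MRPL23) to 56.8 (RPS21). Cytosolic examples open in 5 libraries were RPL14, RPL7A and RPS9, at mean percentiles of 51.1, 28.3 and 39.7. RPS21 was open in 4 and RPL19 in 3 libraries, at means of 56.8 and 42.4. Of the mitochondrial genes, MRPS18B, MRPL21 and MRPS34 were open in 5 libraries, MRPS26 in 4 and MRPL45 in 3, at means of 46.2, 47.6, 28.1, 18.5 and 32.4. MRPL35 and MRPL41 were open in 2 libraries, 1 of each group, at means of 23.8 and 17.3. MRPL14 and MRPL23 were open in NG 2 and NG 3 and in no SMG library, at percentiles of 36.7 and 4.62 (MRPL14) and 3.23 and 18.2 (MRPL23). Promoter GC content was above 70% for MRPL14, MRPL41, MRPS26, MRPS34, MRPS6 and RPS21, and its part in their missing peaks was not tested.

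The second question was whether these genes differed between simulated microgravity and normal gravity. Differences were few and went both ways, and no gene passed a test. Of 78 cytosolic genes open in all 6 libraries, 6 had higher percentiles in each SMG library than in any NG library (7.69%) and 7 had lower ones (8.97%). Of 65 mitochondrial genes, 2 were higher (3.08%) and 6 lower (9.23%). Over all 9331 genes tested, 4.33% were higher and 6.62% lower in SMG without overlap, 11% in either direction. The 21 ribosomal protein genes made up 5.59% higher and 9.09% lower of 143, shares near that background, which is no result particular to them. The smallest p that 3 against 3 libraries allow is 0.1 (exact permutation test, two-sided), and no gene could pass 0.05. After Benjamini-Hochberg adjustment over the 9331 genes the smallest adjusted exact p was 0.913, and 0 genes had an unadjusted or adjusted p under 0.05.

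The median difference in percentile, SMG minus NG, was −1.10 for cytosolic, −0.760 for mitochondrial and −0.354 for all genes tested. In width, 2 cytosolic genes were higher in SMG and 0 lower without overlap, and 4 mitochondrial genes were higher and 1 lower. The shares over all genes tested were 8.11% higher and 2.45% lower, 10.6% in either direction, and the smallest adjusted exact permutation p was 0.946. Median width differences were 28.7 bp for cytosolic, 3.67 bp for mitochondrial and 34.7 bp for all genes tested. SMG 3 had the largest median width for open cytosolic, mitochondrial and all protein-coding genes, at 809, 832 and 800 bp. When widths were ranked within each library instead, 15 of 143 members (10.5%) did not overlap between the groups, beside 9.6% of all genes tested, a share near the background. The median width percentile of open cytosolic genes was then 80.3 ± 0.514 in SMG libraries and 81.8 ± 0.771 in NG libraries (SD, n = 3 each, without overlap), the opposite order to the widths in bp. For mitochondrial genes it was 80.8 ± 1.43 and 82.2 ± 2.36, and for all protein-coding genes 80.3 ± 0.904 and 80.5 ± 0.657 (SMG and NG, SD, n = 3 each). The groups overlapped in both of these. The cytosolic value was picked out after the values were seen and was not tested.

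**Figure D5:**
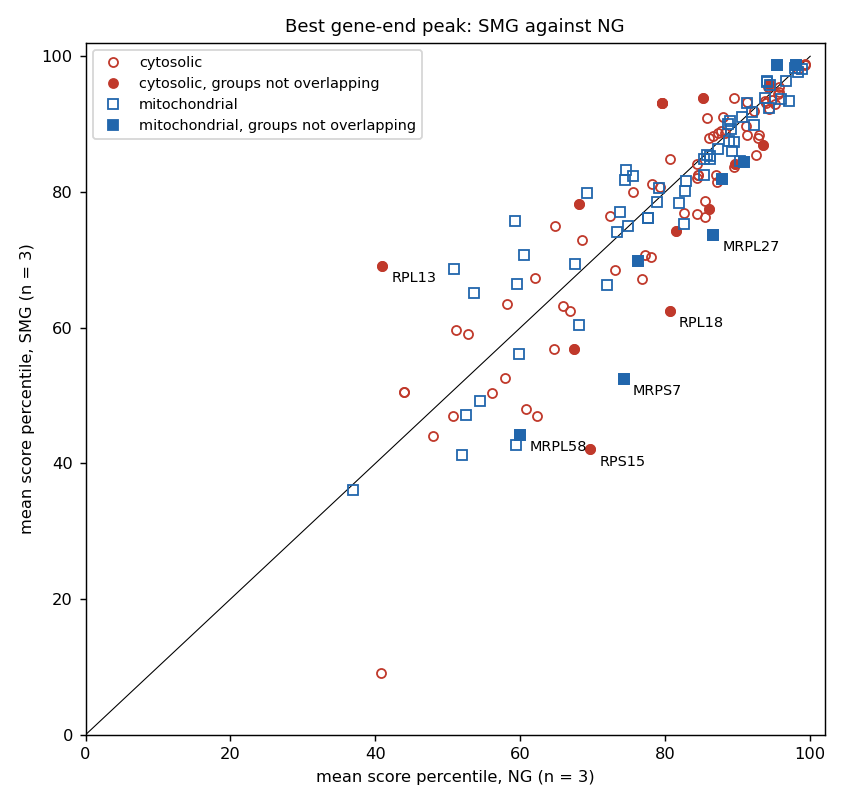
Mean score percentile of the best peak in SMG libraries (y axis) against NG libraries (x axis), n = 3 each, for 78 cytosolic and 65 mitochondrial genes. The line marks equal values. Filled symbols are the 21 genes whose groups did not overlap, and the 3 with the largest differences in each set are named, from RPL13 (28.1 points higher in SMG) to RPS15 (27.6 points lower).

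The largest difference upward was at RPL13 (chromosome 16, 89560657 to 89566829), of the large cytosolic subunit. Its best peak, which covered the start in 6 of 6 libraries, had percentiles of 66.5, 70.5 and 70.3 in SMG 1, 2 and 3, against 50.9, 36.7 and 35.4 in NG 1, 2 and 3. The difference was 28.1 points (exact permutation p = 0.1, n = 3 each, adjusted 0.913), and each SMG value lay above each NG value. Its deposited fold was 5.11, 5.44 and 5.51 in SMG libraries, against 4.28, 3.67 and 3.83 in NG libraries, so the peak was low in both groups. Widths overlapped, at 536, 426 and 323 bp in SMG libraries, against 290, 476 and 600 bp in NG libraries.

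In the other direction RPS15 (chromosome 19, 1438396 to 1440495), of the small cytosolic subunit, had percentiles of 44.8, 59.4 and 22.0 in SMG libraries, against 66.3, 68.5 and 74.2 in NG libraries. The difference was −27.6 points (exact permutation p = 0.1, n = 3 each) and −17.6 points without SMG 3. Its best peaks did not lie at 1 place in the 6 libraries and none covered the annotated start. RPL18 (chromosome 19, 48615331 to 48619178) had percentiles of 67.2, 65.3 and 54.9 in SMG libraries, against 80.2, 79.8 and 81.8 in NG libraries, a difference of −18.1 points at a peak shared with the sphingosine kinase gene SPHK2. Ranked by fold enrichment this difference was −33.0 points.

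Among mitochondrial genes MRPS7 (chromosome 17, 75261879 to 75266376), of the small subunit, had percentiles of 38.2, 59.5 and 59.8 in SMG libraries, against 62.7, 78.1 and 82.1 in NG libraries, a difference of −21.8 points at a peak shared with GGA3. MRPL58 (chromosome 17, 75012670 to 75021261), a peptidyl-tRNA hydrolase that became part of the large subunit, had percentiles of 48.8, 33.3 and 50.3 in SMG libraries, against 64.4, 63.0 and 52.5 in NG libraries, a difference of −15.8 points, or −10.4 without SMG 2. MRPL27 (chromosome 17, 50367867 to 50373184) had percentiles of 71.9, 78.9 and 70.1 in SMG libraries, against 87.1, 88.9 and 83.9 in NG libraries, at a peak shared with the nuclease subunit gene EME1. In all 3 genes each SMG value was below each NG value, and the MRPL58 groups nearly touched, at SMG 3 and NG 3. With a deposited score of at least 100, RPL13, RPS15, MRPS7 and MRPL58 were not open in all 6 libraries and gave no value. The differences of RPL18 and MRPL27 were then −36.5 and −26.9 points. Percentiles were ranked anew among the peaks kept, so these points are on another scale than those above.

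MRPS9 (chromosome 2, 105038069 to 105099960) was the member without overlap in both measures. Over all 9331 genes tested, 11% did not overlap in percentile and 10.6% in width. The share without overlap in both was not computed, so it is not known whether MRPS9 stands apart. Its percentiles were 98.7, 99.0 and 98.6 in SMG libraries, against 98.2, 98.6 and 97.2 in NG libraries, a difference of 0.750 points near the top of the scale and of 0.353 points without NG 3. SMG 3 and NG 2 were equal to the printed digits, with SMG 3 the higher. Its widths were 1093, 1048 and 1261 bp in SMG libraries, against 934, 966 and 877 bp in NG libraries (exact permutation p = 0.1, n = 3 each, adjusted 0.946). Its deposited fold overlapped, at 12.0, 13.1 and 12.2 in SMG libraries, against 11.9, 13.4 and 12.0 in NG libraries.

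Further genes without overlap in percentile included RPS12, RPL39, RPL36A with its readthrough gene at 1 shared peak, RPS4Y1 and MRPL18 (higher in SMG), and RPL24, RPS29, RPL26, RPS28, MRPS14, MRPS25 and MRPS16 (lower in SMG). They were chosen for naming after their values were seen. RPL39 had percentiles of 93.9, 95.8 and 91.6 in SMG libraries, against 88.5, 87.8 and 79.4 in NG libraries. RPL24 had percentiles of 85.5, 83.4 and 83.5 in SMG libraries, against 91.2, 89.3 and 88.2 in NG libraries. The best peak of RPL26 changed place between libraries, so its values compare different peaks. In width, RPL34, RPS2, MRPS21, MRPL22 and MRPL32 were wider in SMG beside MRPS9, and MRPL42 was narrower.

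Genes that work with the ribosomal proteins were mostly open too. Ribosomal proteins with other names had best peaks in all 6 libraries for 6 of 7 cytosolic genes and 4 of 5 mitochondrial genes (GADD45GIP1 was open in 5). Of 20 genes of cytosolic ribosome assembly and RNA polymerase I, 17 were open in all 6 libraries, RRN3 in some, and PES1 and UBTF in none. Of 18 mitochondrial assembly genes, 16 were open in all 6 libraries and MRM1 and MRM2 in some. Over all protein-coding genes 46.6% were open in all 6 libraries. The counts are not all of separate peaks: FAU had the same best peak as MRPL49, and PTCD3 the same as POLR1A. The median of the mean percentile was 80.4 and 79.2 for the otherwise named cytosolic and mitochondrial proteins, and 78.6 and 85.5 for the cytosolic and mitochondrial assembly genes.

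In these lists FBL, the rRNA methyltransferase fibrillarin, had percentiles of 67.3, 76.9 and 77.5 in SMG libraries, against 84.2, 91.9 and 88.8 in NG libraries. DAP3, a GTPase of the small mitochondrial subunit, had percentiles of 84.7, 77.3 and 82.0 in SMG libraries, against 90.2, 90.7 and 87.6 in NG libraries. Both were lower in SMG without overlap, as was GTPBP10, whereas ERAL1 was higher. No overlap was thus seen for 1 of 4 otherwise named mitochondrial and 1 of 17 cytosolic assembly genes. Of 16 mitochondrial assembly genes 1 was higher and 1 lower, and of 6 otherwise named cytosolic genes 0 were either. Over all 9331 genes tested the share was 11% in either direction, so this is no result particular to the lists. FBL, DAP3, GTPBP10 and ERAL1 were named after their values were seen. TFB1M, an rRNA methyltransferase of mitochondria, had the strongest peak of the lists, at a mean percentile of 99.8 ± 0.0843 (SD, n = 6 libraries).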

How the data were processed

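ATAC-seq peaks of Jurkat nuclei were analysed in 3 SMG and 3 NG libraries. Per the submitters' processing notes, FastQC, BWA, Bowtie, SAMtools and MACS2 were used with hg38; their versions and settings, duplicate handling and any read shift were not stated there. Peaks were called by the authors in each library separately, per the peak names in the deposited lists. The deposited score was made by the authors' peak caller as 10 times the −log10 q-value (for at least 99.955% of peaks in a library). The deposited fold enrichment, a linear ratio of summit height to local background, and the −log10 p-value and −log10 q-value were computed by the authors' peak caller. No column of another sample was present (0). Peak names of SMG 3 carry the word "normalized", whose meaning is not stated, so −log10 q-values were ranked within a library. Widths in bp and the folds printed for single genes were not ranked, so their differences between libraries may also follow depth or this step.

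Gene positions came from RefSeq (GRCh38.p14). Annotated starts and strands came from the RefSeq promoter table, which matched 137 of 164 members. For printed sequences the start nearest to the best peaks was used. Percentiles rank −log10 q-values among all peaks of a library. Each gene open in all 6 libraries was tested by an exact permutation test over the splits of 6 libraries, with Benjamini-Hochberg adjustment over 9331 genes. The code was tested on simulated data. Python 3.11.15, numpy 2.4.6, pandas 2.3.3, scipy 1.17.1 and matplotlib 3.10.9 were used.

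Members, lists, tests and alternatives were chosen with earlier results of these data known. Named in each set were the 4 highest percentiles, the 4 widest peaks, the 3 lowest, every member open in 0 to 5 libraries, members without overlap in both measures, the 3 largest differences without overlap, and paralogue pairs of which 1 was open in fewer libraries. Alternatives were other windows (500 bp and 3 kb), a score of at least 100, annotated starts only, members left out, ranking by fold or by width, each library left out, and a replicate block. With a score of at least 100, percentiles were ranked anew among the peaks kept. Values of some single genes are not reported here.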

Additional observations from a re-analysis of the deposited data

How the results depend on the processing

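The lists hold no counts, so depth could not be taken into account, and a weak gene end can miss the authors' threshold. Of the results that answer a comparison, 52 recomputed values stayed close to those reported and 28 moved. No gene passed a test, so no call could be lost. The percentile difference (cytosolic minus mitochondrial, 0.491 as reported) turned negative under 5 settings, the width difference (−6.83 bp) turned positive, at 4.33 bp, without readthrough genes and RPS19BP1, and the order of the open shares turned at annotated starts. With a window of 3 kb the cytosolic open share was 95.8% and the percentile difference −0.942. With a score of at least 100 the open shares were 78.9% (cytosolic) and 74.2% (mitochondrial), the percentile difference was −2.06, and 13 of 100 members did not overlap between the groups in percentile, beside 9.22% of all genes. At annotated starts the open shares were 93.1% (cytosolic) and 94.9% (mitochondrial) and the percentile difference −4.14. Without genes sharing a best peak with a gene outside both sets, the open shares were 91.5% and 86.9%, the differences −43.8 bp and −3.69, and 11 of 86 members (12.8%) did not overlap in percentile, beside 11% of all genes. Ranking by fold gave a percentile difference of −5.37. Ranking widths gave a difference of −0.435 percentile points and 15 of 143 members (10.5%) without overlap, beside 9.6% of all genes, against 7 in bp, beside 10.6%. The causes were not tested.

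Leaving out 1 library at a time gave 28 to 41 members without overlap in percentile, against 21, and 17 to 30 in width, against 7. Over all genes the shares were then 19.4 to 22.2% in percentile and 18.4 to 23.9% in width, and over the members 19.6 to 28.3% and 11.7 to 20.7%. The open shares were then 93.6 to 94.5% and 90.1 to 91.7%, the percentile difference 0.00355 to 0.847 and the width difference −12.8 to −3.40 bp.

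Replicate numbers are shared by the groups in the labels. Same-numbered libraries did not deviate together (correlations −0.0200, 0.0304 and −0.0759), so the numbers were not taken to pair them. With the replicate block, 39 members had 3 same-numbered differences of 1 sign in percentile, beside 25.6% of all genes, and 35 in width, beside 26.4%.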

Other observations

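Ribosomal protein pseudogenes, mostly retrocopies of the same mRNAs scattered over the genome, were looked at after the values of the coding genes were seen. Of 1991 such pseudogenes, 33 (1.66%) were open at a gene end in each of the 6 libraries and 1896 (95.2%) in no library. Of the 33, a gene end of a coding gene lay in the window of 6. Over all 17051 pseudogenes the share open in each of the 6 libraries was 3.85%. Between 48 and 65 ribosomal protein pseudogenes were open per library.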
